A study of Mus musculus with 4 samples.

Results

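H2-Aa, H2-Ab1, H2-Eb1, Cd74, H2-DMa, H2-DMb1 and Ciita, 7 of the 32285 genes counted, are the genes by which a mouse cell makes, loads and switches on MHC class II. They were taken by symbol alone from the gene list, and all 7 were detected. They were followed in single spleen cells of 4 mice, 1 library per mouse. Irradiated BALB/c recipients were given 10000 WEHI-3B AML cells together with bone marrow from C57BL/6 donors, then 200000 donor T cells on day 2, and the spleen was taken on day 23. In 2 mice marrow and T cells came from Havcr2fl/fl donors, in which the gene for TIM-3 is flanked by loxP sites but intact. In the other 2 mice both came from Havcr2fl/fl;E8icre/+ donors, which carry the same floxed alleles and a cre that the Cd8a enhancer E8i drives in CD8+ T cells. Spleen cells were enriched for T cells and stained with a tagged antibody against the donor haplotype H-2Kb. The comparisons ask in which of the recovered cells the 7 genes were transcribed, at what level, and whether the level differed between the donor genotypes.

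MHC class II is an αβ heterodimer on the cell surface that shows peptides from endocytosed protein to CD4+ T cells. In the endoplasmic reticulum the new heterodimer binds the invariant chain, CD74, which blocks the groove and directs it to endosomes. There cathepsins trim CD74 to a short fragment, CLIP, which H2-DM removes so that peptide can bind. CIITA, a coactivator that does not itself bind DNA, is recruited to the W, X and Y boxes upstream of these genes. Dendritic cells, B cells and macrophages are the cells best known to carry class II in spleen, and mouse T cells are known to carry little.

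The 2 best conserved of those boxes can be read in the promoters. The 130 bases before the RefSeq start site are shown for the 3 genes in whose window a script found X-box letters (CTNGNAAC) followed by Y-box letters (ATTGG) on the strand of the gene, and for H2-Ob, a class II gene of the same chromosome 17 cluster. The build is GRCm38.p6 and capitals mark the letters found on either strand.
H2-Aa, chr17:34287824-34287953, minus strand: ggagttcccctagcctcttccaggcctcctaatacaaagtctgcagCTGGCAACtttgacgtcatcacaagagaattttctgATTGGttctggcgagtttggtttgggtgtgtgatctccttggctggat
H2-Eb1, chr17:34305737-34305866, plus strand: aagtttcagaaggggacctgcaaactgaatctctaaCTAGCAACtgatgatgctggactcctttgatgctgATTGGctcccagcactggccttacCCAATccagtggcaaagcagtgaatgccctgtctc
H2-DMb1, chr17:34153061-34153190, plus strand: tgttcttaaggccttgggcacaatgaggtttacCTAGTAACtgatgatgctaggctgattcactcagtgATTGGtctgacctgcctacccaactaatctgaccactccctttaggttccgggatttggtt
H2-Ob, chr17:34238775-34238904, plus strand: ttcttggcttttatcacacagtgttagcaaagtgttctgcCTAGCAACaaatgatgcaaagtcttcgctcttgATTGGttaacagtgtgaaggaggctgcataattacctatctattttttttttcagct
The X letters began 84, 94, 97 and 90 bases before the start in H2-Aa, H2-Eb1, H2-DMb1 and H2-Ob. The Y letters began 36, 35, 36 and 33 bases after them, so the 4 promoters held both boxes at nearly the same spacing. Among the 250-base windows of 32851 promoters, 10.9% held the X letters and 33.8% the Y letters on either strand. Both in this order on the strand of the gene, with starts 30 to 40 bases apart (a range set after these 4 were read), occurred in 20 windows, or 0.0609%. H2-DMa has 2 start sites in the table, and neither window held the X letters. H2-Ab1, Cd74 and Ciita are named only.

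On GRCm38, the chromosome 17 cluster holds H2-DMa at 34119541 to 34139101, H2-DMb1 at 34153072 to 34160230, H2-Ab1 at 34257689 to 34269419, H2-Aa at 34282744 to 34287823 and H2-Eb1 at 34305867 to 34316674. H2-Aa lies on the minus strand and the other 4 on the plus strand. Ciita lies on chromosome 16 at 10480059 to 10528418, and Cd74 lies outside the chromosome 17 cluster.

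The data were UMI counts of 10x 3′ libraries, in which each captured RNA molecule counts once whatever its length. A filter on genes, UMIs and mitochondrial reads and the removal of called doublets left 11507 of 15784 barcodes, between 1204 and 4328 cells a library with medians of 5232 to 7454.5 UMIs per cell. Pairs of libraries shared 1 to 10 barcodes. The labels call the samples T cells. Yet 40.8% of the cells lay in clusters where at most 50% of cells had a Cd3d, Cd3e or Cd3g UMI. Clustered again, these cells formed 19 clusters. Of these, 9 classes were named from marker lists that hold none of the 7 genes, and 338 cells in other clusters stayed unnamed. The 7 genes were also kept out of the clustering, so their levels did not decide a class. The donor tag was low in 54 cells, at more than 3 scaled median absolute deviations under the median log count of their library. This rule is relative to each library, so it does not sort donor cells from recipient or WEHI-3B cells. Havcr2, the gene the cre targets, was measured in CD8+ T cells at 61.2 and 7.86 CPM (UMIs per 1000000 gene UMIs of the class in a library) in the libraries labelled Havcr2fl/fl;E8icre/+ replicates 1 and 2. In the libraries labelled Havcr2fl/fl replicates 1 and 2 it was measured at 54.8 and 114 CPM. The genotypes overlapped and the 2 Havcr2fl/fl;E8icre/+ libraries lay far apart, so these levels do not check the labels. Whether 3′ reads lie outside the deleted part was not tested, and the genotypes below are those of the labels.

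Below, a level is in CPM. Values of the 4 libraries are always Havcr2fl/fl;E8icre/+ replicates 1 and 2, then Havcr2fl/fl replicates 1 and 2, and a mean ± SD is over the libraries with at least 5 cells of the class. A log2 ratio ± SE comes from edgeR's quasi-likelihood test on UMIs summed per class and library, with the library as a block between classes and Benjamini-Hochberg adjustment over all genes tested. Levels of different genes are compared only as ratios between classes.

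The class with the highest level of all 7 genes was the rarest one named, the dendritic-like cells. These were 72 cells (11, 25, 6 and 30), 0.626% of all cells, and held 16.6% of the UMIs of the 7 genes. Their leading markers were those of type 1 conventional dendritic cells, which present antigen from other cells. Xcr1 was at 692 CPM with a UMI in 70.8% of cells, and Clec9a was at 449 CPM with a UMI in 50% of cells. Batf3 was at 275 CPM and Flt3 at 187 CPM, whereas Cd209a, Siglech and Cox6a2, markers of other dendritic cells, were at 0. Of the further markers of such cells, Ccr9 was at 45.9 CPM in 12.5% of cells and Clec10a at 26.2 CPM in 6.94%. Every one of the 72 cells had UMIs of H2-Aa, H2-Ab1 or H2-Eb1. The summed count of these 3 chains per cell ran from a 10th percentile of 18 over a median of 50.5 to a highest of 435, at a median depth of only 2272.5 UMIs per cell.

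**Figure D1:**
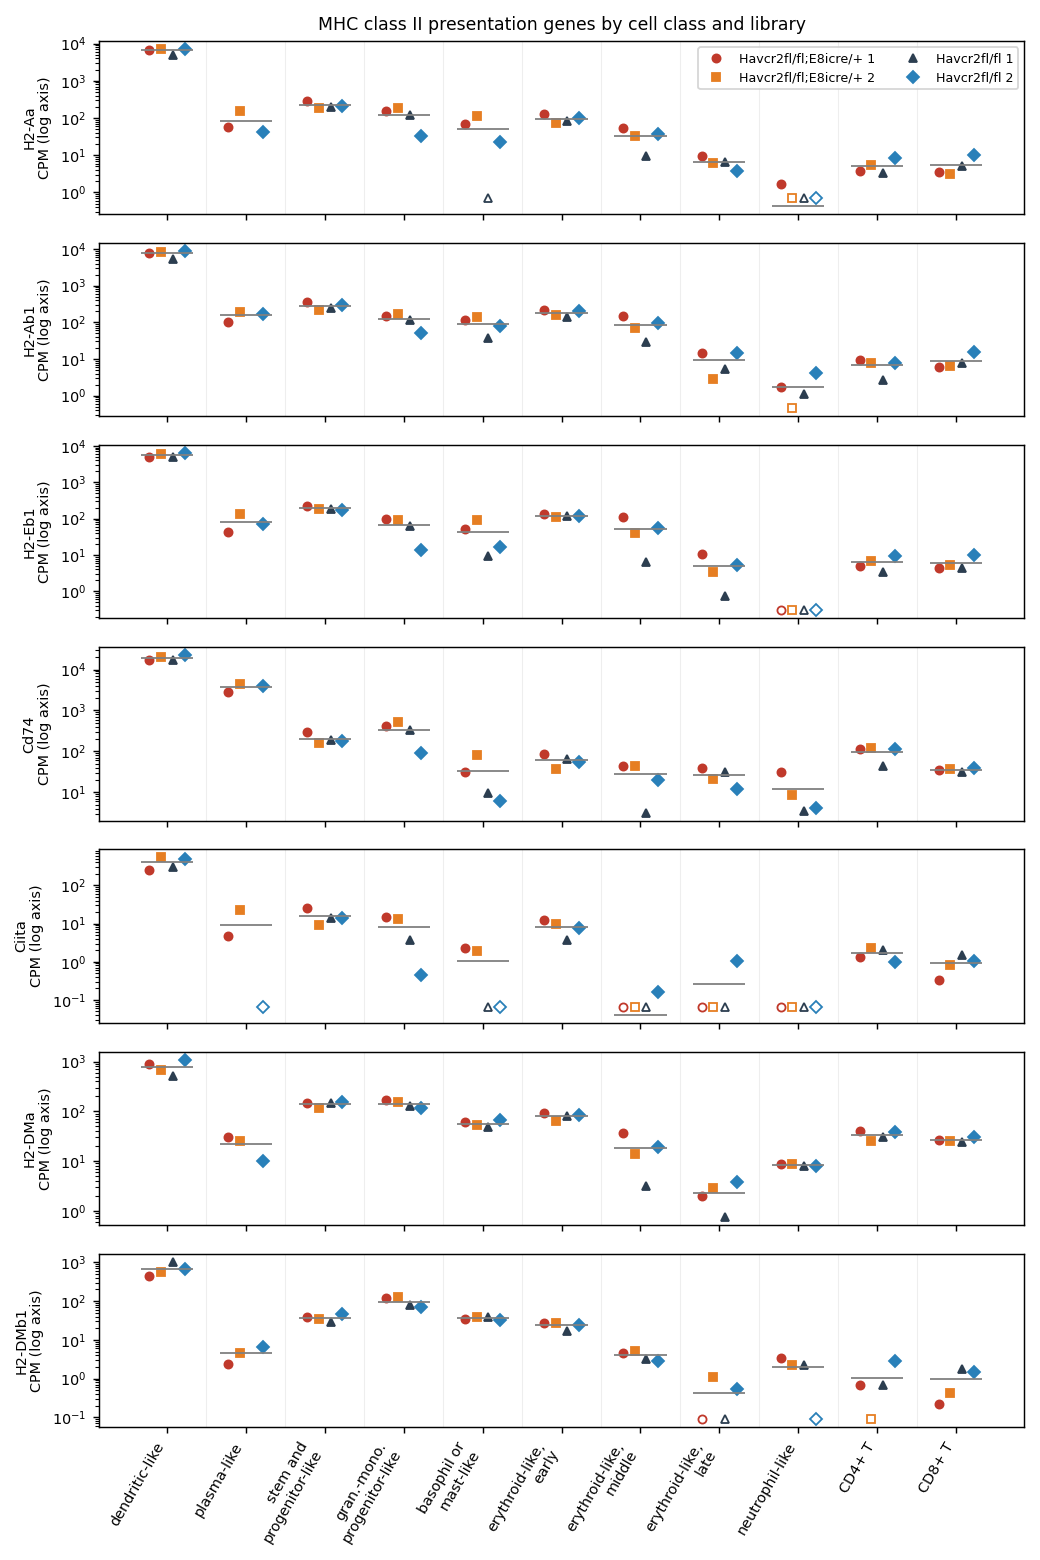
Level of each of the 7 genes (CPM, log axis) by class of cells, one symbol per library and a bar at the mean of the libraries with at least 5 cells of the class. Open symbols at the bottom are libraries with 0 UMIs. Dendritic-like cells lie highest for every gene, and Cd74 alone is also high in plasma-like cells.

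H2-Aa and H2-Ab1 encode the α and β chains of the class II molecule I-A, and H2-Eb1 encodes the β chain of I-E, whose α chain gene is not functional in C57BL/6 mice. In dendritic-like cells, H2-Ab1 was at 7619, 8212, 5487 and 8902 CPM (7555 ± 1475, SD, n = 4). H2-Aa was at 6557, 7207, 4970 and 7307 CPM (6510 ± 1080, n = 4), and H2-Eb1 at 5018, 5782, 4866 and 6360 CPM (5507 ± 696, n = 4). No other class came near these levels in any library.

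The next class for each of the 3 chains was the stem and progenitor-like cells, 338 cells named from a list of 10 markers. Angpt1, Muc13, Kit, Gata2, Egfl7 and Adgrg1 each had a UMI in 55.6% to 83.4% of them. Meis1 had one in 31.1%, Cd34 in 9.47%, Mecom in 7.40% and Hlf in 3.85%. Whether the class holds stem cells was not tested. Here H2-Ab1 was at 350.0, 219.5, 250.3 and 292 CPM (278 ± 56.4, n = 4). H2-Aa was at 281, 190.4, 200.5 and 204 CPM (219 ± 41.8, n = 4), and H2-Eb1 at 219.6, 189, 187 and 175 CPM (193 ± 18.9, n = 4). Only 3 of the 338 cells had no UMI of these chains, and the cells were even, with a median of 13 UMIs, a 10th percentile of 5 and a 90th of 30. The dendritic-like level was higher by 4.56 ± 0.33 on the log2 scale for H2-Ab1, 4.70 ± 0.33 for H2-Aa and 4.63 ± 0.34 for H2-Eb1, and all 7 genes passed the test in that contrast, in which 11.9% of all genes tested were called higher.

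Early erythroid-like cells, 1556 nucleated red cell precursors (306, 122, 44 and 1084) with little globin RNA, came next for H2-Ab1 and H2-Eb1. For H2-Aa they came after the granulocyte-monocyte progenitor-like cells, whose range (32.3 to 183 CPM) overlapped with theirs. H2-Ab1 was at 212, 159.8, 142.5 and 198 CPM (178 ± 32.3, n = 4), with no overlap with the stem and progenitor-like libraries. H2-Eb1 was at 137, 109, 119 and 120.3 CPM (121 ± 11.7, n = 4), and H2-Aa at 126, 74.8, 83.5 and 97.1 CPM (95.2 ± 22.2, n = 4). These cells held 34.3% of all UMIs of the 7 genes, more than any other class, through their number and depth (median 25850 UMIs). Of the 1556 cells, 44 had no UMI of the 3 chains, and the median cell had 9. Against stem and progenitor-like cells the 3 chains were lower, with log2 ratios for the latter over the former of 0.61 ± 0.08 for H2-Ab1, 0.65 ± 0.08 for H2-Eb1 and 1.18 ± 0.08 for H2-Aa (largest edgeR adjusted p = 2.3e-06), in a contrast that called 26.9% of all genes higher.

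Granulocyte-monocyte progenitor-like cells (342 cells, marked by genes such as Mpo and Elane) had H2-Ab1 at 153, 168, 118 and 51.1 CPM (122 ± 51.9, n = 4). Havcr2fl/fl replicate 2, the lowest of these, was the lowest for H2-Aa and H2-Eb1 too. The cells were uneven. The top 1% of them held 22.1% of the UMIs of the 3 chains, beside 4.32% in stem and progenitor-like cells. UMIs of all 3 chains and Cd74 were found in 35.4% of them, beside 74.9% of stem and progenitor-like cells. Against granulocyte-monocyte progenitor-like cells, stem and progenitor-like cells had higher H2-Ab1 (log2 ratio 1.19 ± 0.22), H2-Eb1 (1.58 ± 0.25) and H2-Aa (0.91 ± 0.26, edgeR adjusted p = 0.0084). This contrast called 29.8% of all genes higher. The call of H2-Aa was lost without Havcr2fl/fl;E8icre/+ replicate 1 (edgeR adjusted p = 0.061), without the library block (edgeR adjusted p = 0.092) and with DESeq2 (adjusted p = 0.12). Basophil or mast-like cells (189 cells) had H2-Ab1 at 113, 136, 38.2 and 79.0 CPM and H2-Aa at 68.8, 115.6, 0 and 22.8 CPM, the 0 coming from a library with 6 such cells. Their range overlapped with that of the granulocyte-monocyte progenitor-like cells.

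The chains were lowest in neutrophil-like cells (238 cells) and low in late erythroid-like cells (1032 cells). In neutrophil-like cells H2-Ab1 was at 1.73, 0, 1.13 and 4.05 CPM from 3 UMIs in all, H2-Aa had 1 UMI, and H2-Eb1 had none in any library, where a count of 0 allows up to 3.4 to 12.1 CPM. In late erythroid-like cells H2-Ab1 was at 14.6, 2.82, 5.23 and 14.4 CPM. These intervals and limits cover counting error only.

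CD74, the invariant chain, did not follow the order of the chains it escorts. In dendritic-like cells Cd74 was at 17473, 19850.0, 17393 and 22399 CPM (19279 ± 2372, n = 4). Second came the plasma-like cells, a cluster of 110 cells (23, 20, 2 and 65) led by Jchain, Mzb1 and Xbp1, genes of antibody-secreting cells. Their Cd74 was at 2776, 4328, 5327 (from 2 cells) and 3896 CPM (3666 ± 801, n = 3), and all 110 cells had a Cd74 UMI. The dendritic-like level of Cd74 was higher than the plasma-like one by 0.94 ± 0.23 on the log2 scale (edgeR adjusted p = 0.0034), against 3.98 to 5.30 for the other 6 genes in the same contrast, which called 15.4% of all genes higher. These ratios follow TMM scaling of the sums, which the CPM values do not carry, and the gap in CPM is wider. The size of the ratio thus depends on the scaling, and total UMIs alone were not tried for this contrast.

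Cd74 in granulocyte-monocyte progenitor-like cells was at 428, 513, 324 and 90.8 CPM (339 ± 183, n = 4). In stem and progenitor-like cells it was at 290.1, 165, 192 and 175 CPM (206 ± 57.4, n = 4), within the range of the former (log2 ratio -0.59 ± 0.27, edgeR adjusted p = 0.072). Without Havcr2fl/fl replicate 2 this ratio was -1.05 and passed (edgeR adjusted p = 2.7e-05). In early erythroid-like cells it was at 84.2, 37.0, 66.2 and 53.9 CPM (60.3 ± 19.9, n = 4). The step from stem and progenitor-like to early erythroid-like cells was therefore larger for Cd74, at 1.78 ± 0.09, than for H2-Ab1 at 0.61 ± 0.08; the difference between the genes was not tested.

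The count of Cd74 per H2-Ab1 molecule differed widely between classes, though dendritic-like and granulocyte-monocyte progenitor-like cells overlapped. Over all libraries it was 23.6 in plasma-like cells (22.1 to 36.9 by library), 2.47 in dendritic-like cells (2.29 to 3.17) and 2.79 in granulocyte-monocyte progenitor-like cells (1.78 to 3.06). It was 0.733 in stem and progenitor-like cells (0.601 to 0.829) and 0.309 in early erythroid-like cells (0.232 to 0.464). In the latter 2 classes every library had fewer Cd74 than H2-Ab1 UMIs, and in the first 3 every library had more. These are ratios of summed UMIs. In granulocyte-monocyte progenitor-like cells the chain UMIs lay unevenly, as given above, so the ratio there does not describe the typical cell. T cells, with 411 H2-Ab1 UMIs, were at 6.57 (4.87 to 10.7). Late erythroid-like cells, with 54, were at 2.63 (0.815 to 7.60). The ratio of H2-Aa to H2-Ab1 ran from 0.439 in plasma-like and 0.519 in early erythroid-like to 0.848 in dendritic-like and 1.01 in granulocyte-monocyte progenitor-like cells. The plasma-like value rests on 3 cells described further on, without which the cluster had 45 H2-Aa and 239 H2-Ab1 UMIs.

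Basophil or mast-like cells paired the chains with little Cd74 as well. Their Cd74 was at 32.1, 83.7, 9.55 and 6.08 CPM and was lower than in T cells by -0.86 ± 0.24 on the log2 scale (edgeR adjusted p = 0.0019), whereas their H2-Ab1 was higher by 3.32 ± 0.20, in a contrast that called 25.5% of all genes higher and 29.5% lower. They had 0.391 Cd74 UMIs per H2-Ab1 UMI over all libraries. H2-Oa, a chain of the H2-DM inhibitor H2-O, was at a mean of 72.0 CPM in them, beside 219.8 CPM in dendritic-like, 22.2 CPM in stem and progenitor-like and 5.1 CPM in T cells.

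**Figure D2:**
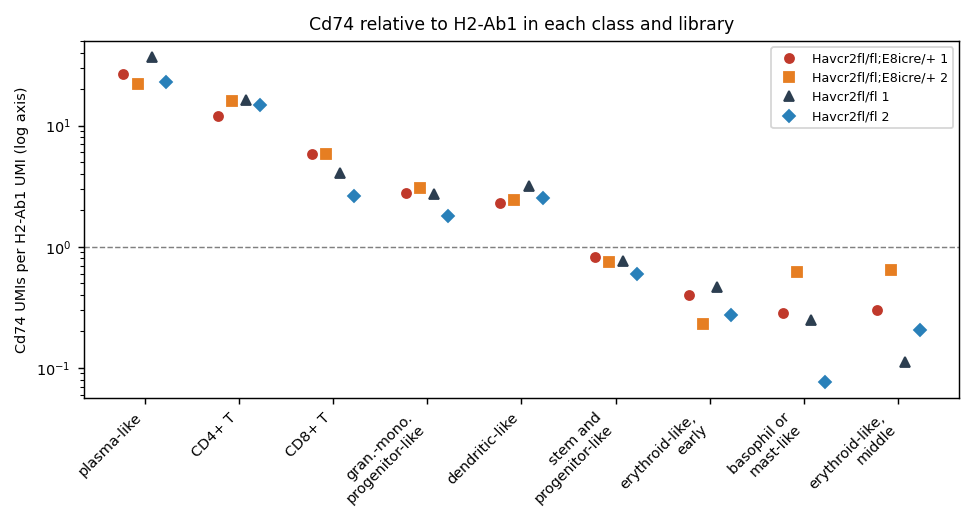
Cd74 UMIs per H2-Ab1 UMI (log axis) by class of cells, one symbol per library, with a dashed line where both counts are equal. Plasma-like cells lie highest at 22.1 to 36.9, and all libraries of stem and progenitor-like and early erythroid-like cells lie under the line.

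H2-DMa and H2-DMb1 encode the 2 chains of H2-DM, which takes CLIP out of the groove. H2-DMa was at 879, 684, 518 and 1098 CPM in dendritic-like cells (794 ± 250.3, n = 4). It was at 145, 118, 145 and 153 CPM in stem and progenitor-like cells (140.3 ± 15.7, n = 4) and at 165, 151, 128 and 117 CPM in granulocyte-monocyte progenitor-like cells (140.3 ± 22.1, n = 4). The last pair of classes could not be separated (log2 ratio -0.06 ± 0.11, edgeR adjusted p = 0.68). Early erythroid-like cells had H2-DMa at 93.9, 65.2, 78.6 and 84.0 CPM (80.4 ± 12, n = 4).

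H2-DMb1 was at 440, 560.1, 1035 and 661 CPM in dendritic-like cells (674 ± 257, n = 4). Granulocyte-monocyte progenitor-like cells followed at 117, 126, 77.2 and 68.5 CPM (97.3 ± 28.7, n = 4), above stem and progenitor-like cells at 39.7, 35.3, 29.0 and 47.0 CPM (37.7 ± 7.57, n = 4). It was the only one of the 7 genes called lower in stem and progenitor-like than in granulocyte-monocyte progenitor-like cells with all 4 libraries, by -1.38 ± 0.17 on the log2 scale, and 29.8% of all genes were called lower there. H2-DMb1 has a near-identical copy, H2-DMb2, and how reads were split between them is uncertain; H2-DMb2 was at a mean of 43.4 CPM in dendritic-like cells and 2.7 CPM in granulocyte-monocyte progenitor-like cells.

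CIITA controls the transcription of the other 6. Ciita was at 256, 544, 311 and 504 CPM in dendritic-like cells (404 ± 142, n = 4), from 7, 66, 3 and 74 UMIs. Stem and progenitor-like cells had 25.5, 8.96, 13.9 and 13.7 CPM (15.5 ± 7.05, n = 4), and early erythroid-like cells 12.3, 9.68, 3.78 and 7.54 CPM (8.32 ± 3.59, n = 4), from 141, 68, 10 and 197 UMIs. The early erythroid-like UMIs lay in 19.2% of cells, while 0 of 238 neutrophil-like cells, at a median depth of 6862.5 UMIs, had one. Stem and progenitor-like cells were higher than early erythroid-like ones by 0.82 ± 0.22 (edgeR adjusted p = 0.0042), and their ranges overlapped. Without Havcr2fl/fl;E8icre/+ replicate 1 it was 0.69 (edgeR adjusted p = 0.063).

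From early to middle erythroid-like cells (483 cells, by library 32, 26, 11 and 414) all 7 genes fell. The log2 ratio of early over middle was 0.83 ± 0.13 for H2-Ab1, 0.91 ± 0.14 for H2-Eb1, 1.20 ± 0.15 for H2-Aa and 0.94 ± 0.16 for Cd74. It was 1.85 ± 0.17 for H2-DMa and 2.65 ± 0.28 for H2-DMb1. Thus 7 of 7 genes were called higher in early cells, where 27.4% of all genes were. Their median was 1.20 beside 0.03 over all genes tested. With DESeq2 in place of edgeR the calls of H2-Eb1 (adjusted p = 0.064) and Cd74 (adjusted p = 0.17) were lost.

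Ciita was at the floor in middle erythroid-like cells, with 1 UMI in the 4 libraries together. There H2-Ab1 was still at 147, 68.0, 28.6 and 98.2 CPM (85.5 ± 50.1, n = 4) with 750 UMIs, 605 of them in Havcr2fl/fl replicate 2. H2-DMb1 had 3, 3, 1 and 18 UMIs there. In Havcr2fl/fl replicate 1 a Ciita count of 0 allowed up to 9.55 CPM, above its early erythroid-like level of 3.78 CPM. In late erythroid-like cells, where globin takes a large share of all UMIs, H2-Ab1, H2-Eb1, H2-Aa and H2-DMa were lower again, by 1.95 ± 0.25, 2.15 ± 0.29, 1.21 ± 0.33 and 1.54 ± 0.45 as middle over late, in a contrast that called 31.1% of all genes higher. Cd74 was called the other way at -0.94 ± 0.27 (edgeR adjusted p = 0.0031), where 29.7% of all genes were, but it turned to 0.29 ± 0.28 (edgeR adjusted p = 0.32) when libraries were scaled by total UMIs alone. That scaling moved the median of all genes in this contrast from 0.11 to 1.38, so no direction of Cd74 is given for this step. Of the other calls of this step, H2-DMa was lost without Havcr2fl/fl;E8icre/+ replicate 1 (edgeR adjusted p = 0.064) and H2-Aa without Havcr2fl/fl replicate 2 (edgeR adjusted p = 0.078).

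**Figure D3:**
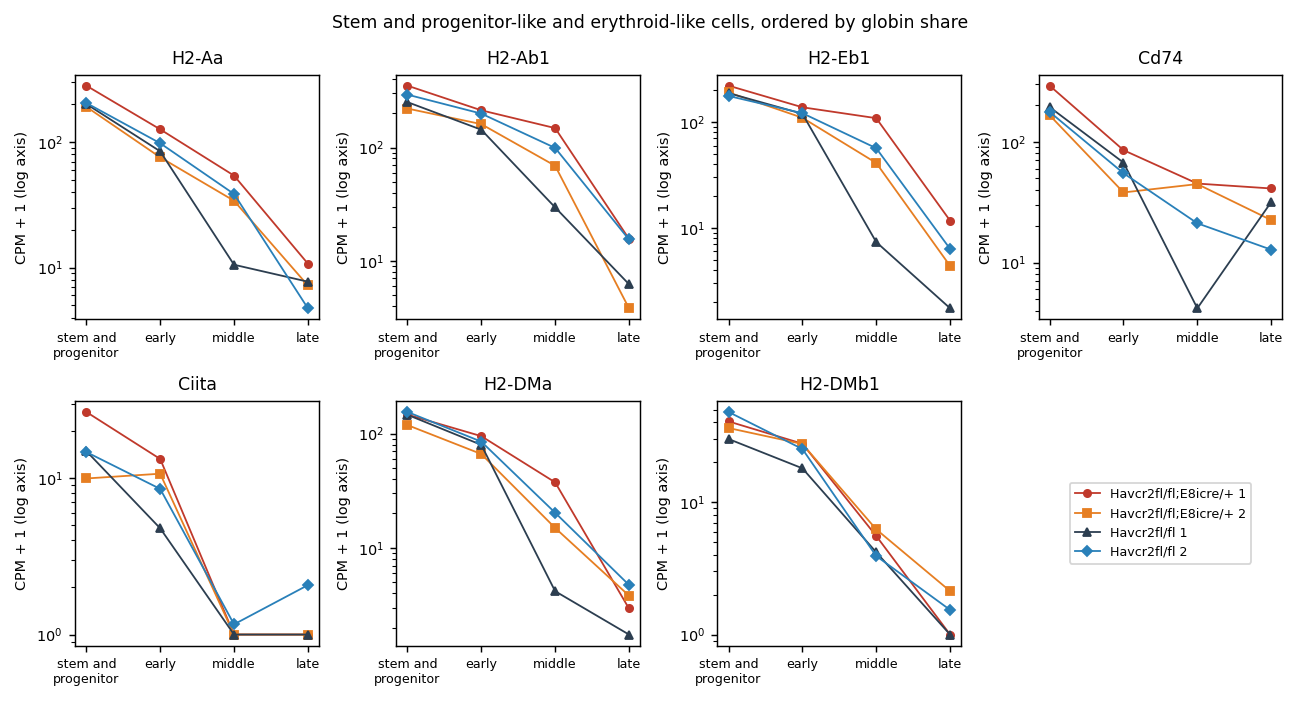
Level of each gene (CPM plus 1, log axis) from stem and progenitor-like through early and middle to late erythroid-like cells, one line per library. The chains fall over each step, and Ciita is at or near 0 from the middle class on, with 1 UMI in 483 cells, 414 of them from Havcr2fl/fl replicate 2.

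The plasma-like cluster was the class nearest to B cells and was compared with T cells in the 3 libraries that held at least 20 of its cells. Of the 7 genes 6 were higher, where 14.8% of all genes were called higher, and their median log2 ratio was 4.64 beside -0.20 over all genes tested. Cd74 was higher by 7.05 ± 0.28, H2-Ab1 by 5.22 ± 0.26, H2-Aa by 4.67 ± 0.37 and H2-Eb1 by 4.64 ± 0.31. H2-DMa was not called, at 0.79 ± 0.36 (edgeR adjusted p = 0.092), and scaling by total UMIs turned it to -0.70 ± 0.33 with a shift of the median of all genes to -1.69. Without Havcr2fl/fl replicate 2, H2-DMa was called at 1.30 (edgeR adjusted p = 0.017) and H2-DMb1 was not (edgeR adjusted p = 0.085, against 3.80 ± 0.98 and 0.0027 with it).

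All of the Ciita and most of the H2-Aa signal of that cluster sat in 3 cells. Pax5, the factor that keeps B cells B cells, had UMIs in only 3 of the 110 cells, 1 in Havcr2fl/fl;E8icre/+ replicate 1 and 2 in replicate 2. This split was chosen after the values were seen. The 3 cells also had Ms4a1 and Ebf1, and a single Jchain UMI among them. They held all 12 Ciita UMIs of the cluster and 84 of its 129 H2-Aa UMIs, with H2-Aa at 4167 CPM, H2-Ab1 at 2728 CPM, H2-Eb1 at 2877 CPM and Cd74 at 10620.0 CPM.

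In the other 107 cells Ciita had 0 of 1811355 UMIs, which allows up to 1.66 CPM, and Jchain was at 20640.0 CPM. Cd74 remained at 3706 CPM, with UMIs in each of the 107 cells, a median of 56 and a range of 1 to 279. H2-Ab1 was at 132 CPM with UMIs in 90 cells, H2-Eb1 at 49.7 CPM, H2-Aa at 24.8 CPM and H2-DMa at 12.2 CPM. Without the 3 cells, Cd74 was higher than in T cells by 6.88, H2-Ab1 by 4.59, H2-Eb1 by 3.81 and H2-Aa by 2.93 on the log2 scale, and these 4 of 5 genes tested were called, where 2725 of 10241 genes were. H2-DMa, the fifth, was at 0.24 ± 0.45 (edgeR adjusted p = 0.76), and Ciita and H2-DMb1 had too few counts to be tested.

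Cells named monocyte or macrophage-like (293, marked by genes such as Csf1r and Lyz2) appeared only at a finer clustering, and all 293 lie within the 342 granulocyte-monocyte progenitor-like cells of the coarser one. In them all 7 genes were higher than in T cells, where 36.9% of all genes were called higher, with a median log2 ratio of 3.13 beside -0.03 over all genes. H2-DMb1 was higher by 6.94 ± 0.27, H2-Aa by 4.08 ± 0.39, H2-Ab1 by 3.6 ± 0.32, H2-Eb1 by 3.13 ± 0.42, Ciita by 2.87 ± 0.56, Cd74 by 2.44 ± 0.33 and H2-DMa by 2.33 ± 0.11. The cells were uneven. In 24.6% of them no UMI of the 3 chains was found, the median was 2 and the highest 426, and 17 cells (5.80%) with at least 50 such UMIs were spread over the libraries as 6, 7, 4 and 0.

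Progenitor-like cells (stem and progenitor-like with granulocyte-monocyte progenitor-like, 680 cells) were also higher for 7 of 7 genes, where 38.6% of all genes were called higher, with a median of 3.91 beside -0.01. Dendritic-like cells against T cells gave 7 of 7 genes higher, where only 7.15% of all genes were, with ratios from 4.57 ± 0.35 for H2-DMa to 9.59 ± 0.33 for H2-Aa. Early erythroid-like cells were higher for 6 of 7 genes, where 40% of all genes were called higher. The exception was Cd74 at -0.06 ± 0.19 (edgeR adjusted p = 0.77), which passed at -0.34 without Havcr2fl/fl replicate 1 (edgeR adjusted p = 0.049). The median log2 ratio of the 7 genes was 9.13 in dendritic-like and 3.81 in early erythroid-like cells, beside -0.50 and -0.05 over all genes tested.

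T cells, the 6809 cells the enrichment was made for, were low for the chains as well. In CD8+ T cells H2-Ab1 was at 6.16, 6.32, 7.79 and 15.1 CPM, and in CD4+ T cells at 9.52, 7.75, 2.69 and 7.67 CPM, both within or close to the range of late erythroid-like cells, and the mean of neutrophil-like cells was 1.73 CPM. After thinning each cell to 2000 UMIs, 1.43% of T cells had an H2-Ab1 UMI (95% Wilson interval 1.16 to 1.75), beside 3.32% unthinned. The Wilson intervals here and below pool the cells of all libraries, so they do not cover the spread between mice. Neutrophil-like cells, taken as the background, gave 0 of 220, which allows up to 1.36%, a value inside the T cell interval, so no expression of H2-Ab1 in T cells is read from this share. On summed UMIs, neutrophil-like cells were called lower than all T cells in 5 of 5 genes tested, where 33.1% of all genes were. Against CD8+ T cells it was 1 of 5 (33.8% of all genes), and against CD4+ T cells 2 of 2 (30.9%). The sum of all T cells includes the single cell described next. Late erythroid-like cells gave 0.918% (0.484 to 1.74), but RNA left from earlier stages of the same lineage was not tested in them.

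A single cell held a large part of the T cell signal. Of 1007 UMIs of the 3 chains in all T cells, 248 lay in 1 cell of Havcr2fl/fl;E8icre/+ replicate 1, which had 458 such UMIs in all, and the next cell had 22. That cell had 27801 UMIs in total, 317 of Cd74 and none of Xcr1 or Clec9a. Whether it holds RNA of a second cell was not tested.

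By the share of thinned cells pooled over libraries, Cd74 in CD4+ T cells and H2-DMa in T cells were above the neutrophil-like background. Cd74 in CD8+ T cells was not set apart from it by share. Neutrophil-like cells had the lowest mean Cd74 level of any named class (11.8 CPM). With 2000 UMIs per cell, 13.7% of CD4+ T cells (12.1 to 15.4) and 4.91% of CD8+ T cells (4.29 to 5.62) had a Cd74 UMI, beside 3.64% (1.85 to 7.01) of neutrophil-like and 2.65% (1.82 to 3.86) of late erythroid-like cells. Unthinned, the shares were 23.2% of CD4+ and 10.4% of CD8+ T cells. The level of Cd74 was 114, 123, 43.7 and 114 CPM in CD4+ T cells (98.8 ± 37.0, n = 4) and 35.7, 36.9, 31.4 and 39.6 CPM in CD8+ T cells (35.9 ± 3.41, n = 4), with no overlap.

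Within each mouse, CD8+ T cells were lower than CD4+ T cells in Cd74 by -1.43 ± 0.14 on the log2 scale (edgeR adjusted p = 4.4e-06). It was the only one of the 5 genes tested that was called, where 12.4% of all genes were called lower. H2-Ab1 at 0.13 ± 0.29, H2-Aa at -0.04 ± 0.28, H2-Eb1 at -0.06 ± 0.24 and H2-DMa at -0.25 ± 0.12 (edgeR adjusted p = 0.16) were not. H2-DMa was at 32.7, 28.1, 26.7 and 34.0 CPM in all T cells (30.4 ± 3.52, n = 4), with a UMI in 6.03% of thinned cells (5.47 to 6.64) beside 0.455% of neutrophil-like and 0.102% of late erythroid-like cells. Its partner H2-DMb1 had 34 UMIs in all 6809 T cells, against 1153 of H2-DMa, whereas dendritic-like cells had 187 against 273.

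**Figure D4:**
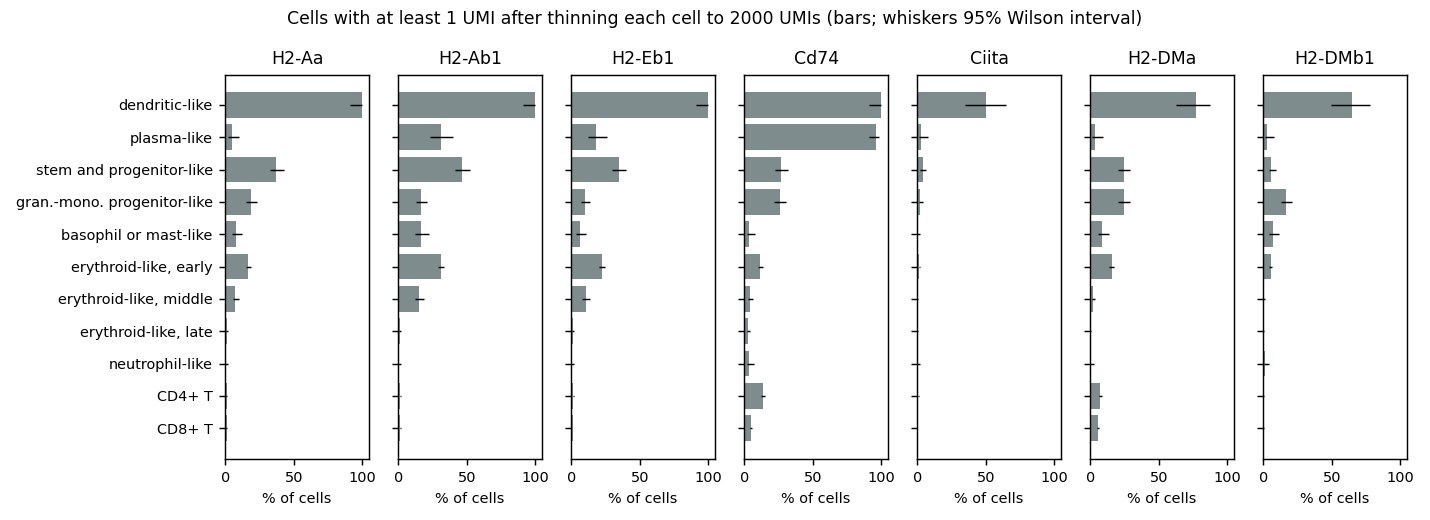
Share of cells with at least 1 UMI of each gene after thinning every cell to 2000 UMIs, by class, with 95% Wilson intervals over the pooled cells of all libraries. All thinned dendritic-like cells had UMIs of H2-Aa, H2-Ab1, H2-Eb1 and Cd74, 96.4% of plasma-like cells had Cd74, and T cells lie near 0 for the 3 chains.

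At equal depth the order of the classes held for H2-Ab1. All 40 dendritic-like cells with at least 2000 UMIs had one after thinning (91.2 to 100%), as did 46.8% of stem and progenitor-like cells (41.5 to 52.1), 30.9% of early erythroid-like cells (28.7 to 33.2) and 16.7% of granulocyte-monocyte progenitor-like cells (13.1 to 21). Thinning left out 32 of the 72 dendritic-like cells as too shallow. Unthinned, the shares were 97.2%, 97.0%, 94.0% and 69.3%. Ciita, with few UMIs, was found in 50% of dendritic-like (35.2 to 64.8), 3.85% of stem and progenitor-like (2.26 to 6.47) and 1.54% of early erythroid-like cells (1.04 to 2.28) after thinning.

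The other genes of the pathway were counted in each contrast with T cells. The list of 28 was taken from general knowledge and holds further class II genes, endosomal proteases, transcription factors and costimulatory genes. In dendritic-like over T cells, 11 of 26 tested were higher and 2 lower, with a median of 0.39, where 7.15% of all genes were called higher and 10.9% lower. The higher ones included H2-Oa (5.42 ± 0.36) and H2-Ob (6.96 ± 0.53), the 2 chains of the H2-DM inhibitor H2-O, Ctss (1.83 ± 0.35), the cathepsin that makes CLIP, and Ifi30 (3.66 ± 0.35), a thiol reductase of endosomes. March1 (9.43 ± 0.61), a ubiquitin ligase that removes class II from the surface, Irf8 (4.94 ± 0.32) and Cd86 (3.52 ± 0.37) were higher too.

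In early erythroid-like cells against T cells 6 of 23 genes were higher (Ctsl, Ifi30, Rfxap, Nfya, Nfyc and Ifngr2) and 15 lower, with a median of -1.29. Over all genes 40% were called higher and 42.2% lower, so the share higher lay under the background. The parts of the RFX and NF-Y complexes, which bind the X and Y boxes shown above, were called in both directions. Rfxap was at 0.52 ± 0.09, Nfya at 0.79 ± 0.10 and Nfyc at 0.55 ± 0.10, whereas Rfx5 was at -0.89 ± 0.16, Rfxank at -0.70 ± 0.16 and Nfyb at -0.26 ± 0.08. Among the other lower ones, Ctss was at -7.39 ± 0.20, H2-Oa at -3.36 ± 0.34 and Irf8 at -4.80 ± 0.21. The mean level of Ctss was 0.4 CPM in early erythroid-like and 7.0 CPM in stem and progenitor-like cells, beside 294 CPM in dendritic-like cells. Cd86 was at a mean of 232 CPM in dendritic-like cells and under 1 CPM in both other classes.

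Stem and progenitor-like cells over T cells (35.4% of all genes called higher and 38.1% lower) had 6 of 23 genes higher, H2-Oa (2.10 ± 0.21) and H2-Ob (2.48 ± 0.46) among them, and 13 lower, with a median of -0.77. In plasma-like over T cells 12 of 27 were higher, with Ctss at 3.42 ± 0.20, Lgmn, an endosomal protease, at 6.88 ± 0.38 and Irf4, a factor of plasma cells, at 4.05 ± 0.24, while 6 were lower, where 14.8% of all genes were called higher and 17.4% lower. In monocyte or macrophage-like cells 11 of 26 were higher, among them Ifi30 (4.18 ± 0.14), Irf8 (3.14 ± 0.14) and Ctss (1.59 ± 0.12), and 13 lower, beside 36.9% and 39.1% of all genes. In progenitor-like cells 12 of 27 were higher and 14 lower, beside 38.6% and 38.1% of all genes, so in the last pair of contrasts the share higher was near that of all genes, which is no result about the list.

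Of the receptors for class II, Lag3 was at a mean of 289.6 CPM in CD8+ and 131 CPM in CD4+ T cells, and Cd4 was at 556 CPM in the latter.

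The donor genotypes were compared in each class with at least 5 cells in every library, and none of the 7 genes passed the test in any of them. The design has 2 mice against 2, and the cre acts in CD8+ T cells, so the other classes are not those in which Havcr2 was meant to be deleted. In monocyte or macrophage-like cells, where 0.159% of all genes were called (15 of 9462, with 353 at an unadjusted p under 0.05), both Havcr2fl/fl;E8icre/+ libraries lay above both Havcr2fl/fl libraries for all 7 genes. H2-Ab1 was at 158, 167, 126 and 48.1 CPM, Cd74 at 488, 559, 379 and 102 CPM, and Ciita at 17.0, 13.5, 4.51 and 0.517 CPM from 52, 35, 13 and 1 UMIs. Havcr2fl/fl replicate 2 was the lowest library for each of the 7. In basophil or mast-like cells (0.0274% of all genes called) the libraries separated in the same direction for Cd74, Ciita, H2-Aa, H2-Ab1 and H2-Eb1. Havcr2fl/fl replicate 1 held 6 of these cells, and Ciita was not tested there. The median log2 ratio of the 6 genes tested was 1.51, beside 0.02 over all genes. The share of all genes whose libraries separated in this way was not counted in either class, so the separation is not read as a result about the 7.

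The log2 ratios of Havcr2fl/fl;E8icre/+ over Havcr2fl/fl there were 2.39 ± 0.53 for Ciita (edgeR adjusted p = 0.44), 1.12 ± 0.50 for H2-Eb1, 1.10 ± 0.45 for Cd74, 1.08 ± 0.44 for H2-Aa, 0.86 ± 0.34 for H2-Ab1, 0.66 ± 0.19 for H2-DMb1 and 0.37 ± 0.18 for H2-DMa, with adjusted p of 0.95 to 1.0 for these 6. Their median was 1.08 beside -0.01 over all genes. The number called differed with the libraries used, with 5 of the 7 called without Havcr2fl/fl replicate 1, 2 without Havcr2fl/fl;E8icre/+ replicate 1, 1 without Havcr2fl/fl;E8icre/+ replicate 2 and 0 without Havcr2fl/fl replicate 2. Each of these fits leaves 1 group with a single library, which is assumed to vary as the 2 libraries of the other group do. The count of cells with at least 50 chain UMIs was 0 in Havcr2fl/fl replicate 2. That cutoff does not allow for depth. Havcr2fl/fl replicate 2 had 1933135 UMIs in 84 such monocyte or macrophage-like cells, and replicate 1 had 2881148 in 57. Doublets called and removed also differed, at 2, 5, 9 and 109 by library, where the expected rate gives 119, 65, 15 and 239. The part of any of these in the difference was not tested.

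In stem and progenitor-like cells (0.109% of all genes called) the ratios of the 7 genes lay between -0.21 and 0.33, and in dendritic-like cells (0% called, with 14 of 1054 genes at an unadjusted p under 0.05) between -0.57 and 0.17, with SEs of 0.37 to 0.54. In early erythroid-like cells (0.0585% called) Ciita was at 0.71 ± 0.27 (edgeR adjusted p = 0.59) and the other 6 between -0.11 and 0.24. In all progenitor-like cells (0.00942% called) the ratios were 0.10 to 1.16, and without Havcr2fl/fl replicate 1 that of Cd74 was 1.42. The granulocyte-monocyte progenitor-like cells in that sum include the 293 cells described above. In T cells (0.0171% called) the ratios were between -1.56 and 0.51.

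Within CD8+ T cells, in which the cre acts (0.0275% called), H2-Aa was at -1.22 ± 0.41 and H2-Ab1 at -0.92 ± 0.35, both with an edgeR adjusted p of 1.0, from levels near background. Cd74 in these cells was equal within its error, at 35.7 and 36.9 against 31.4 and 39.6 CPM. In CD4+ T cells 0% of all genes were called by edgeR, 300 of 9668 had an unadjusted p under 0.05, and Cd74 was at 0.57 ± 0.36. Plasma-like cells could not be compared between genotypes at the set minimum, since Havcr2fl/fl replicate 1 held 2 of them.

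**Figure D5:**
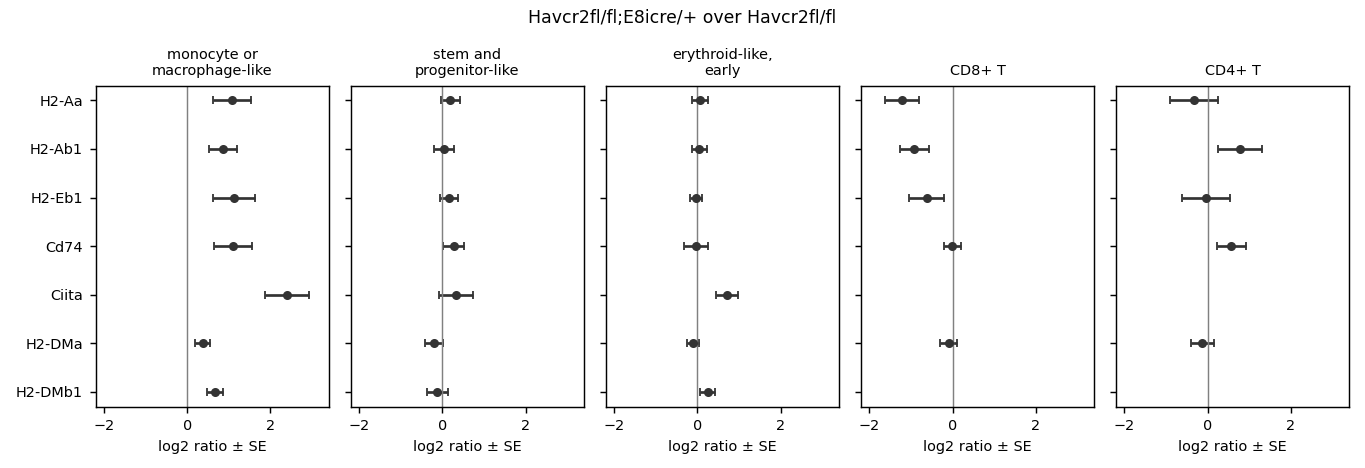
Log2 ratio of Havcr2fl/fl;E8icre/+ over Havcr2fl/fl for each gene in 5 classes of cells, with the standard error of the fit as bars and a line at 0. Missing points were not tested. No point passed the adjusted threshold, and in monocyte or macrophage-like cells all 7 points lie above 0, from 0.37 for H2-DMa to 2.39 for Ciita.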

How the data were processed

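The authors deposited UMI counts per gene and cell from 10x 3′ libraries, unnormalized, made with Cell Ranger 6.1.2 on mm10 per the submitters' processing notes. Barcodes under 500 genes or 1000 UMIs, or over 10% mitochondrial, were dropped with 125 called doublets, and Seurat 5.3.0 in R 4.3.3 clustered the integrated libraries (2000 variable genes, 30 dimensions, resolution 0.8). Clusters were named from marker lists, needing at least 3 raised markers. The naming rule was set after the data were seen, and the monocyte or macrophage-like class came from resolution 1.4. The 7 genes and the lists were chosen with earlier results of these data known. Named beside the 7 are genes of the pathway list, markers, class II receptors and Havcr2. Counts were summed per class and library, filtered with filterByExpr, scaled by TMM and tested with edgeR 4.0.16 (quasi-likelihood, threshold 0.05). Class contrasts needed 20 cells per library, and added ones 5. The method was tested on simulated data with 200 changed genes, for plasma-like over T cells, genotype in progenitor-like cells and genotype in T cells. At a log2 change of 1 it recovered 30.5%, 30% and 36% of them, with 4, 15 and 13 false calls. At a log2 change of 2 it recovered 85.5%, 96.5% and 91%, with 8, 26 and 19 false calls. Most genotype differences of 1 on the log2 scale would thus be missed in progenitor-like and T cells, and genotype in other classes was not simulated. In both genotype fits false calls were a larger share of all calls than the 0.05 of the threshold. Alternatives were DESeq2 1.42.0, no low-count filter, other resolutions, cell filters and doublet rules, no integration, tag-positive cells, total-UMI scaling, the replicate block and each library left out. Replicates are separate mice. Promoters and start sites are RefSeq's, gene positions GENCODE M21's. Python 3.11.15 was used.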

Additional observations from a re-analysis of the deposited data

Results flagged for a closer look

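For 4 of the 7 genes both Havcr2fl/fl;E8icre/+ libraries lay above both Havcr2fl/fl libraries in monocyte or macrophage-like cells, while in CD8+ T cells both lay below. As the mean of the Havcr2fl/fl;E8icre/+ libraries minus that of the Havcr2fl/fl libraries, H2-Aa was at 92.8 CPM in monocyte or macrophage-like cells and -4.26 CPM in CD8+ T cells. H2-Ab1 was at 75.4 CPM in monocyte or macrophage-like, 3.45 CPM in CD4+ T and -5.18 CPM in CD8+ T cells. Ciita was at 12.7 CPM in monocyte or macrophage-like, 5.32 CPM in early erythroid-like and -0.68 CPM in CD8+ T cells. H2-DMb1 was at 49.5 CPM in monocyte or macrophage-like, 5.95 CPM in early erythroid-like and -1.28 CPM in CD8+ T cells. In dendritic-like cells, with 6 to 30 cells a library, H2-DMb1 was at -348 CPM, both Havcr2fl/fl;E8icre/+ libraries lying below both Havcr2fl/fl libraries. In CD8+ T cells Ciita rested on 3, 6, 6 and 5 UMIs and H2-DMb1 on 2, 3, 7 and 7. The share of all genes whose libraries separated in these ways was not counted, so the separation is not read as a result about these genes. The difference between the classes was not tested.

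The 338 cells of the clusters left unnamed, which enter no comparison, held H2-Ab1 at 165.1 CPM and Cd74 at 240.8 CPM over all libraries, against a mean of 1.73 and 11.8 CPM in neutrophil-like cells.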

How the results depend on the processing

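Of 192 alternative counts of the 7 genes called in a comparison, 185 stayed within 1.5 times the reported count, and of 1300 alternative values of single genes 1213 kept direction and side of the threshold. Some alternatives repeat the reported fit. Other resolutions gave 3398 of 10568 genes again for plasma-like over T cells and 2 of 11672 for genotype in T cells. Agreement of such repeats was fixed in advance. In monocyte or macrophage-like cells the genotype count of 0 became 5 with no filter on low counts and 4 with the replicate block. Over all genes 15 calls became 87 and 41 with these. The count of the 7 also differed with the library left out. In progenitor-like cells 0 became 1 with no filter, and the count differed with the library left out. Over all genes 1 call became 95 with no filter and 17 with DESeq2. Genotype calls over all genes became 93 (no filter) and 18 (DESeq2) from 2 in T cells, and 193 (no filter), 24 (DESeq2) and 144 (without Havcr2fl/fl replicate 2) from 6 in early erythroid-like cells. Dendritic-like over T cells gave 1117 calls with DESeq2 in place of 1910, CD8+ over CD4+ T cells 1016 without the block in place of 2687, stem and progenitor-like over early erythroid-like cells 3335 in place of 5053, and plasma-like over T cells 8289 with total UMIs in place of 3398. The block changed no other genotype count of the 7. Without the library block between classes, the count was 4 of 5 tested for plasma-like over T cells, where 3171 of 10121 genes were called. It was 6 of 6 for monocyte or macrophage-like over T cells, where 7648 of 10813 genes were called. It was 3 of 7 for stem and progenitor-like over granulocyte-monocyte progenitor-like cells and 4 of 4 for middle over late erythroid-like cells. With the block, these last 2 contrasts called 59.7% and 60.8% of all genes in either direction. Equal replicate numbers mark no stated pair, and their correlations were -0.14 in T cells, -0.21 in progenitor-like and 0.12 in early erythroid-like cells.

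Signs that turned belong to genotype ratios of uncalled genes near 0, with these exceptions. Early erythroid-like over T cells, Cd74 was 0.073 without the T cell with most class II UMIs and -0.34 to 0.12 with 1 library left out. CD8+ over CD4+ T cells, without the replicate block H2-Aa was 0.17 and H2-Eb1 0.051, with DESeq2 H2-Aa was 0.016, and with 1 library left out H2-Aa was -0.16 to 0.26, H2-Eb1 -0.125 to 0.081 and H2-Ab1 -0.065 to 0.46. H2-DMa in stem and progenitor-like over granulocyte-monocyte progenitor-like cells was -0.21 to 0.043 with 1 library left out. With total UMIs only, H2-DMa in plasma-like over T cells was -0.70 and Cd74 in middle over late erythroid-like cells 0.29.

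For genotype in T cells, H2-Aa was 0.25 and H2-Eb1 0.10 with the stricter cell filter. H2-Aa was 0.016 with doublets by expected rate, 0.013 in tag-positive cells, 0.00011 with DESeq2, 0.021 with no low-count filter, 0.0014 with the block and 0.059 with total UMIs. H2-Eb1 was 0.042 with the block and 0.019 with total UMIs, and H2-DMa 0.00097 with the latter. H2-Ab1 was -0.063 with doublets kept, -0.61 with no integration, -0.026 with the 7 genes among the variable genes and -0.63 without the T cell with most class II UMIs. With 1 library left out, H2-Ab1 was -0.60 to 0.72, H2-Aa -0.62 to 0.77, H2-Eb1 -0.54 to 0.76 and H2-DMa -0.22 to 0.13. H2-DMa in progenitor-like cells was -0.14 at resolution 1.4. In early erythroid-like cells, Cd74 was 0.22 with doublets kept, 0.52 with no integration, 0.061 with the 7 genes variable, 0.22 in tag-positive cells and 0.049 with total UMIs. H2-Eb1 was 0.0055 with doublets kept, 0.12 with no integration and 0.041 with total UMIs, and H2-DMa 0.15 with no integration. With 1 library left out, H2-Aa was -0.25 to 0.31, H2-Ab1 -0.15 to 0.30, H2-Eb1 -0.11 to 0.037, Cd74 -0.66 to 0.34 and H2-DMa -0.30 to 0.046. The cause was not tested.

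Not run were the genotype fit in plasma-like cells, its difference from monocyte or macrophage-like cells, and other resolutions for the latter. Depth limits Ciita, with 3 to 74 UMIs per library in dendritic-like cells, and 36 of 42 shares of cells moved with thinning. Cells with a low donor tag were too few to be described apart.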

Other observations

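Across 39 sums of a class in a library, the genes whose log2 level ran most like the mean of H2-Aa, H2-Ab1, H2-Eb1 and Cd74 were ranked among 9591 genes as a description, since sums of a library and of related classes share depth and mouse. Ciita was first (Pearson r 0.856), then Mtmr4 (0.820), Rnase6 (0.816), H2-DMb1 (0.813) and Cbfa2t3 (0.805). H2-DMa was 9th (0.786) and H2-Ob 32nd (0.712).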
